A study of Mus musculus with 32 samples.

Results

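The genes of mRNA deadenylation, decapping and exosomal decay were examined in mouse bone marrow-derived macrophages (BMDMs) treated to undergo, or to be spared from, necroptosis, a lytic form of cell death driven by the kinase RipK1. The set held 45 genes named by symbol, all 45 were measured, and they were read from the brightest probe of each gene among 16037 genes tested on one-colour Agilent arrays. BMDMs were grown in M-CSF from the marrow of WT C57BL/6 mice and of mice lacking Ifnar1, a chain of the type I interferon receptor. Cells of each genotype were left untreated or received LPS (100 ng/mL in the labels), IFNβ (1000 U/mL in the labels), or the caspase inhibitor zVAD for 6 h, or zVAD together with LPS or IFNβ, each with or without Nec-1, an inhibitor of RipK1. Combinations are written LPS+zVAD, LPS+zVAD+Nec-1 and so on. This gave 16 groups of 2 arrays each, 32 arrays in all. The doses of LPS and IFNβ in the study's methods differ from those in the labels, no source used here says that the arrays of a group came from separate animals, and the p-values therefore measure the spread between arrays, which may be technical.

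A cytoplasmic mRNA is usually destroyed in steps. The poly(A) tail is shortened first, by the PAN2-PAN3 pair and then by the CCR4-NOT complex. The body is then degraded from the 5′ end by the nuclease XRN1, after DCP2 has removed the cap with the help of its partners and the LSM ring. It can also be degraded from the 3′ end by the exosome, a ring of inactive subunits that works with catalytic ones. Among the members, DIS3 and EXOSC10 are catalytic subunits of the exosome, and the cell compartment in which they act was not examined here. In macrophages these routes set how long cytokine mRNAs last, and Zc3h12a (Regnase-1) is an endonuclease known for cutting such mRNAs.

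Each of the 4 slides carried 8 arrays, the 8 treatments of 1 genotype under 1 replicate number, so genotype and slide cannot be told apart and the genotypes were compared only through their changes from untreated. Between 54.9% and 78.1% of probes stood well above background on the WT arrays and between 44.5% and 61.6% on the Ifnar1-/- arrays. The 7 macrophage markers were above background on all 32 arrays, with a summed log2 level of 19.34 to 19.70 in WT and 19.27 to 19.80 in Ifnar1-/- cells. Of these, Fcgr1 read 12.30 to 16.73 in WT and 6.81 to 11.83 in Ifnar1-/- cells, while the ranges of the others overlapped between genotypes. The summed neutrophil markers (3 of 4 above background on all arrays) reached 12.34 to 15.34 in WT and 15.43 to 16.60 in Ifnar1-/- cells, and the fibroblast markers (3 of 4) 8.69 to 11.08 and 10.89 to 13.07. The T cell markers (1 of 3) reached 10.04 to 11.89 and 10.09 to 11.11, the B cell markers (1 of 3) 7.13 to 8.65 and 7.29 to 8.54, and the dendritic cell markers (0 of 2) 7.07 to 10.51 and 6.69 to 9.71. Of the neutrophil markers, Ly6g went the other way (6.81 to 12.31 in WT and 2.75 to 5.14 in Ifnar1-/- cells, above background there on 1 of 16 arrays) and S100a8 overlapped between genotypes. With LPS+zVAD in WT cells the dendritic cell sum was 10.40 to 10.51 beside 7.31 to 7.44 untreated, and the B cell sum 8.53 to 8.65 beside 7.72 to 7.92. The part of such cells in the LPS+zVAD results and in the differences between genotypes was not tested. The replicate arrays correlated at 0.973 to 0.991 over all genes, apart from the pair labelled Ifnar1-/- LPS+zVAD+Nec-1 at 0.947. There Tnf, an LPS target, read 15.92 on replicate 1 and 9.99 on replicate 2, the level of untreated Ifnar1-/- cells (10.01). Replicate 2 thus went against its label, and counts that use this pair are also given without the pair or without replicate 2. Through the joint fit the pair also enters the SE of every other comparison. Ifnar1 itself averaged 14.20 in untreated WT and 11.88 in untreated Ifnar1-/- cells, but 11.78 in WT and 11.66 in Ifnar1-/- cells with LPS+zVAD, and 10.88 (SD 2.62) in WT and 11.27 in Ifnar1-/- cells with IFNβ+zVAD+Nec-1. The probe's place relative to the deletion is not known here and its signal does not check the genotype by itself. In bulk RNA, fewer cells of a kind and less of an mRNA per cell cannot be told apart.

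The decay genes changed in both directions, and more of them were called in WT than in Ifnar1-/- cells. Over the 7 treatments, 39 of the 45 members passed the test at least once in WT cells (68.8% of all genes) and 18 in Ifnar1-/- cells (38.2% of all genes), and 6 passed in neither. The Ifnar1-/- count was 21 (41.6% of all genes) in the fit without the pair labelled LPS+zVAD+Nec-1, over the other 6 treatments. In WT cells 13 of the 45 were called higher only (25.6% of all genes), 25 of the 45 lower only (40% of all genes), and Lsm6 alone was called both ways. In a moderated F test over all 8 treatments, untreated included, 36 members passed in WT (62.4% of all genes) and 11 in Ifnar1-/- cells (33.4% of all genes). The latter count was 15 without the array labelled Ifnar1-/- LPS+zVAD+Nec-1 replicate 2 and 28 when the replicate number, which marks the slide, was fitted as a block. The shares of all genes that belong to the counts of 15 and 28 are not given here. All calls are from limma with Benjamini-Hochberg adjustment over all genes tested, at an adjusted p under 0.05.

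In WT cells, LPS raised 9 members and lowered 14 (16.3% and 24.8% of all genes), and IFNβ raised 7 and lowered 12 (13.7% and 21.6% of all genes). LPS+zVAD raised 10 and lowered 22 (18.3% and 32.7% of all genes), so that 48.9% of the members fell. IFNβ+zVAD raised 9 and lowered 12 (14.4% and 23.1% of all genes), LPS+zVAD+Nec-1 likewise 9 and 12 (16% and 25% of all genes), and IFNβ+zVAD+Nec-1 raised 11 and lowered 8 (13.3% and 18.4% of all genes). With zVAD alone none of the 45 reached an adjusted or an unadjusted p under 0.05 (0.00624% of all genes were higher and 0% lower). Of the shares called lower, that with LPS+zVAD stood furthest above the share of all genes, and of the shares called higher, that with IFNβ+zVAD+Nec-1 (24.4%) did. The median log2 change of the members with LPS+zVAD was -0.50 beside -0.15 over all genes, against -0.01 beside -0.08 with LPS and -0.12 beside -0.17 with IFNβ. Single arrays weighed on these counts: that with LPS+zVAD was 21 in place of 32 without WT LPS+zVAD replicate 2, that with IFNβ 12 in place of 19 without WT untreated replicate 2, and those with IFNβ+zVAD and IFNβ+zVAD+Nec-1 12 and 9 in place of 21 and 19 without WT untreated replicate 1.

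**Figure D1:**
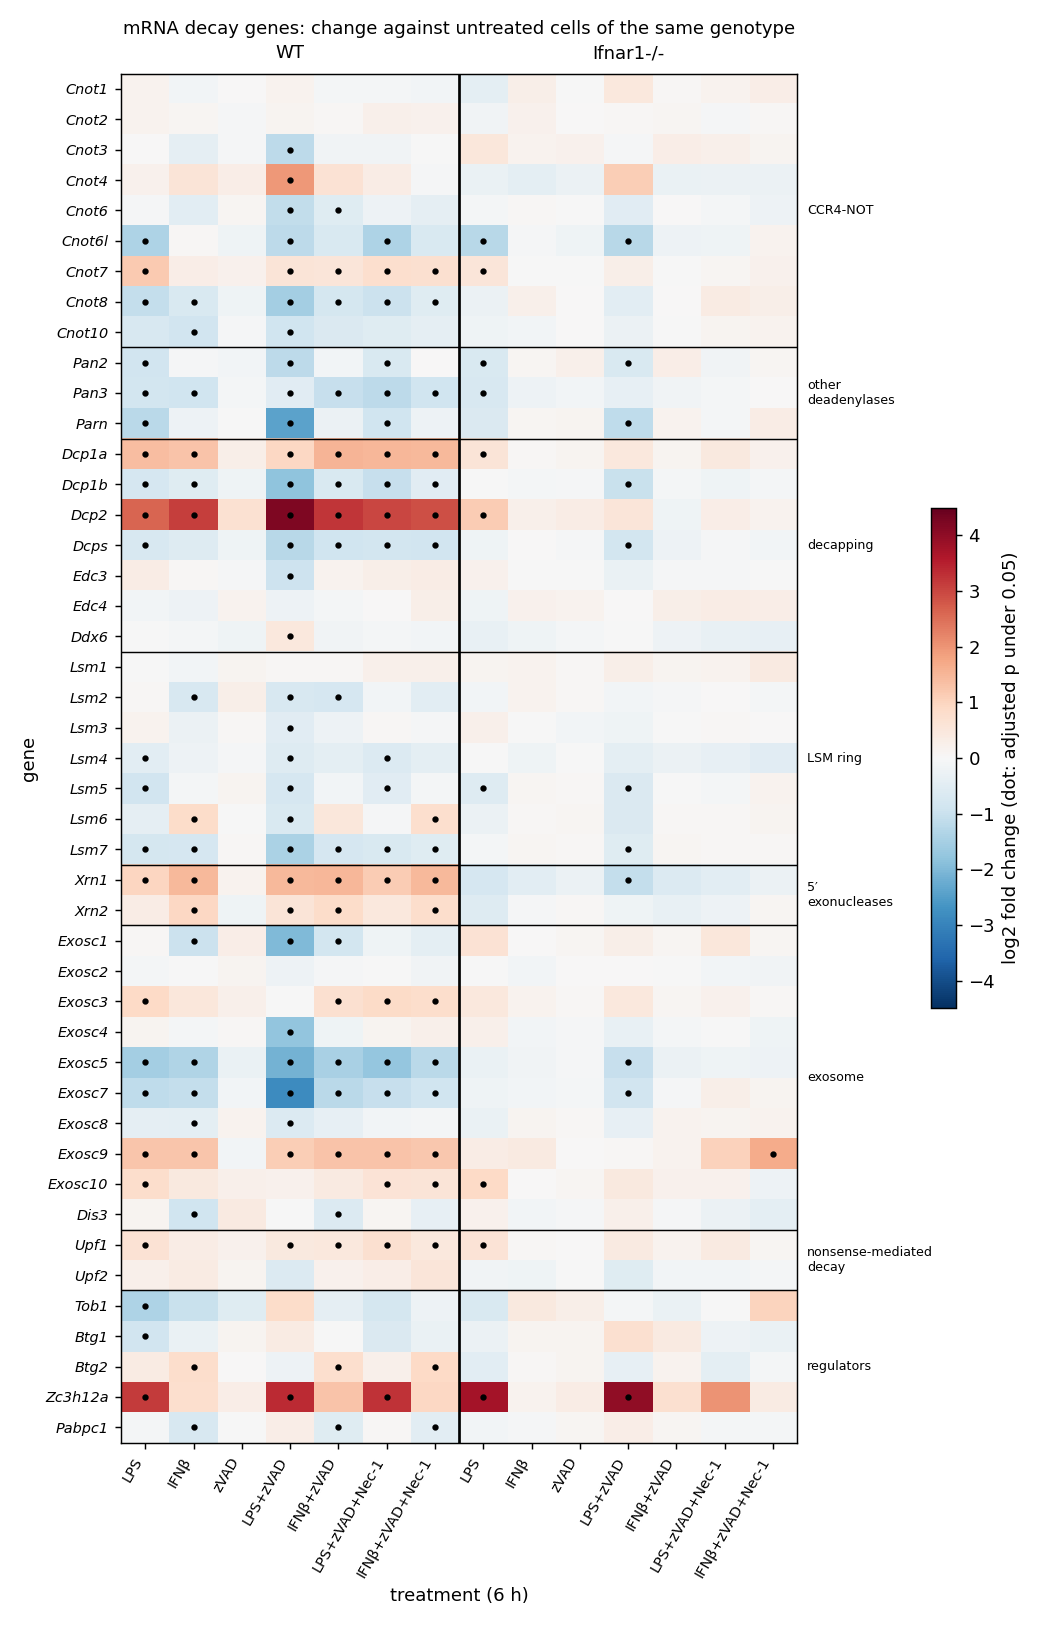
Log2 fold change of each of the 45 genes (rows, grouped by role) for the 7 treatments against untreated cells of the same genotype (columns, WT left and Ifnar1-/- right), with a dot where the adjusted p was under 0.05. Dcp2 in WT cells reaches 4.19 with LPS+zVAD, and the zVAD columns carry no dot.

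The split between higher and lower calls depended on the scaling. When quantile normalization was replaced by a shift that set the 75th percentile of all arrays equal, the median of all genes moved by up to 0.28 (WT LPS+zVAD), and the calls became 10 higher and 7 lower with LPS, 7 and 5 with IFNβ, 12 and 17 with LPS+zVAD, 9 and 6 with IFNβ+zVAD, 9 and 7 with LPS+zVAD+Nec-1, and 8 and 2 with IFNβ+zVAD+Nec-1. Relative to the median of all genes, the members' median with LPS+zVAD was lower by either scaling (-0.35 by quantile normalization and -0.30 by the shift).

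In Ifnar1-/- cells, LPS raised 6 members and lowered 4 (10.9% and 13.9% of all genes), and LPS+zVAD raised 1 and lowered 10 (11% and 17.2% of all genes). With the shift to a common 75th percentile these became 5 and 0 with LPS and 2 and 6 with LPS+zVAD, and with the replicate block the LPS+zVAD count rose from 11 to 23. Without Ifnar1-/- LPS replicate 1 the LPS count was 3, and without Ifnar1-/- untreated replicate 2 the LPS+zVAD count was 4. No member passed with IFNβ (0% and 0% of all genes), zVAD (0% and 0%) or IFNβ+zVAD (0% higher and 0.00624% lower), and none had an unadjusted p under 0.05 there. With LPS+zVAD+Nec-1 no member passed either (0.549% and 0.767% of all genes), 5 having an unadjusted p under 0.05, and 3 passed once the array labelled Ifnar1-/- LPS+zVAD+Nec-1 replicate 2 was left out. IFNβ+zVAD+Nec-1 raised 1 member, Exosc9, and lowered 0 (1.15% and 0.617% of all genes), and the count was 2 with the replicate block. The plot of member counts beside the share of all genes shows these comparisons side by side.

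**Figure D2:**
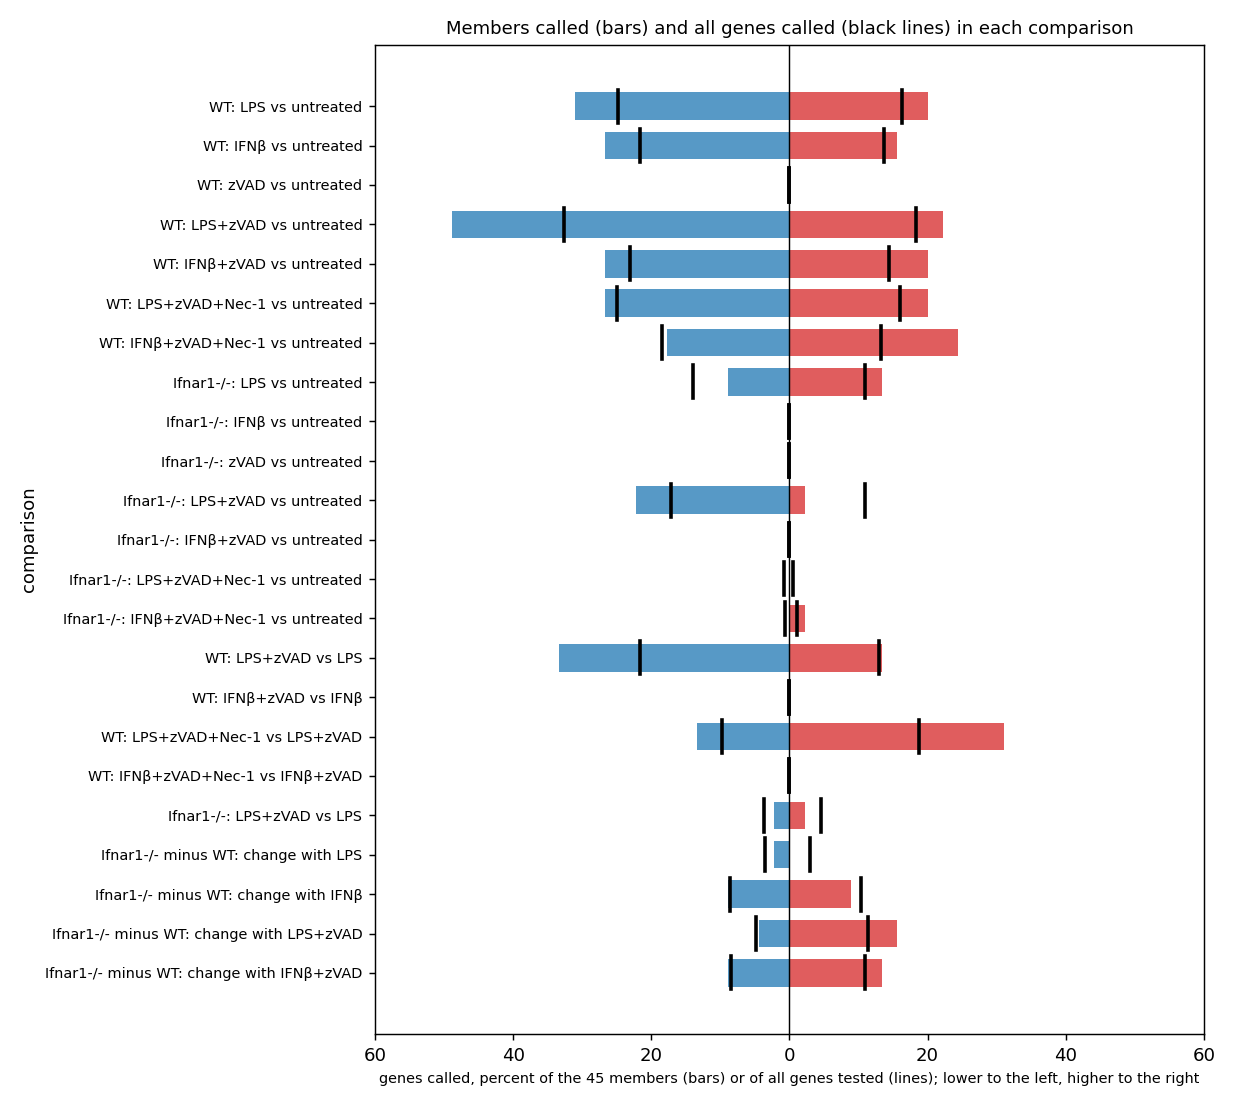
Bars give the percent of the 45 members called lower (left) or higher (right) in each of the 23 comparisons, and black lines the percent of all genes tested that were called in that direction. The longest bar is that of the 22 members lower with LPS+zVAD in WT cells, 48.9% beside 32.7%.

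The decapping genes held the largest change. Dcp2, the enzyme that removes the cap, read 6.74 and 6.78 on the untreated WT arrays (log2 signal, replicates 1 and 2), 9.76 and 9.02 with LPS, 9.84 and 9.88 with IFNβ, 10.44 and 11.47 with LPS+zVAD, 9.84 and 10.08 with IFNβ+zVAD, 9.83 and 9.73 with LPS+zVAD+Nec-1, and 9.64 and 9.66 with IFNβ+zVAD+Nec-1, but 6.95 and 7.98 with zVAD alone. All 12 arrays that had received LPS or IFNβ lay above both the untreated and both the zVAD arrays. Dcp2 rose 18.3-fold with LPS+zVAD (log2 4.19 ± 0.37 SE, adjusted p = 4.97e-08), 8.56-fold with IFNβ (3.10 ± 0.37, adjusted p = 3.87e-06) and 6.20-fold with LPS (2.63 ± 0.37, adjusted p = 2.13e-05). In Ifnar1-/- cells Dcp2 read 6.16 and 6.64 untreated, 7.44 and 7.62 with LPS, 6.37 and 6.89 with IFNβ, 6.66 and 7.22 with LPS+zVAD, and 6.12 and 6.29 with IFNβ+zVAD. There it rose with LPS alone (log2 1.13 ± 0.37, adjusted p = 0.0329), a call lost without any 1 of the 4 arrays compared (adjusted p up to 0.223, without Ifnar1-/- untreated replicate 1), and its 95% interval with IFNβ ran from -0.55 to 1.02.

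Dcp1a, which activates DCP2, moved the same way at a smaller size. On the WT arrays it read 9.86 and 9.94 untreated, 11.54 and 11.07 with LPS, 11.10 and 11.25 with IFNβ, 10.51 and 11.16 with LPS+zVAD, and 11.29 and 11.56 with IFNβ+zVAD, with no overlap between any of these and untreated. It rose by log2 1.40 ± 0.20 with LPS (adjusted p = 2.31e-05), 1.27 ± 0.20 with IFNβ (adjusted p = 7.4e-05) and 0.94 ± 0.20 with LPS+zVAD (adjusted p = 0.000668). Its paralog Dcp1b went the other way in the same cells: it fell by 0.75, 0.56 and 1.80 on the log2 scale with LPS, IFNβ and LPS+zVAD, and was lower in all 6 comparisons of LPS- or IFNβ-treated WT cells with untreated cells. With the shift to a common 75th percentile the call of Dcp1b held with LPS+zVAD and LPS+zVAD+Nec-1. It did not pass with LPS (-0.61, adjusted p = 0.0525), IFNβ (-0.45, adjusted p = 0.184), IFNβ+zVAD (adjusted p = 0.0566) or IFNβ+zVAD+Nec-1 (adjusted p = 0.19). Dcps, which breaks down the cap left after decay from the 3′ end, was called lower in 5 of these 6, by up to 1.25 with LPS+zVAD (adjusted p = 0.000108). Its other calls were each lost without some single arrays. With LPS the change was -0.60 without WT untreated replicate 1. Without replicate 2 of the treated group it was -0.69 with IFNβ+zVAD, -0.64 with LPS+zVAD+Nec-1 and -0.65 with IFNβ+zVAD+Nec-1. The call of Dcps with LPS also did not pass with the shift (-0.59, adjusted p = 0.0678). Of the remaining decapping factors, the enhancer Edc3 fell (-0.94 ± 0.25) and the helicase Ddx6 rose (0.48 ± 0.18) with LPS+zVAD only, and Edc4 passed in no comparison. Without WT LPS+zVAD replicate 1 Edc3 was -0.54 (adjusted p = 0.116). The call of Ddx6 (adjusted p = 0.0336) was lost without any 1 of the 4 arrays (adjusted p up to 0.157, without WT LPS+zVAD replicate 1).

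The LSM ring, which binds the shortened 3′ end and promotes decapping, had 6 of its 7 subunits called lower with LPS+zVAD in WT cells (32.7% of all genes), and Lsm1 (log2 0.06) was not called. Lsm7 changed most (-1.44 ± 0.17, adjusted p = 1.67e-06), and the others lay between -0.50 (Lsm3) and -0.76 (Lsm5). Of the 6, the calls of Lsm5 and Lsm7 held without any 1 array, and those of Lsm2 (-0.38, adjusted p = 0.311), Lsm6 (adjusted p = 0.243), Lsm3 (adjusted p = 0.133) and Lsm4 (adjusted p = 0.0877) were lost without WT LPS+zVAD replicate 2. With the shift to a common 75th percentile Lsm3 (adjusted p = 0.0657), Lsm4 (-0.03, adjusted p = 0.91) and Lsm6 (adjusted p = 0.266) did not pass. Lsm2 to Lsm7 are also subunits of the nuclear ring on U6 snRNA, while Lsm1 is particular to the cytoplasmic one. With LPS, Lsm4, Lsm5 and Lsm7 were lower, and the direction of Lsm4 turned with the shift to a common 75th percentile (from -0.47 to 0.10). With IFNβ, Lsm2 and Lsm7 were lower and Lsm6 was higher (0.83 ± 0.24). These calls of Lsm2 and Lsm6 were each lost without some single arrays (adjusted p up to 0.275, without WT untreated replicate 1, and 0.113, without WT IFNβ replicate 1), and those of Lsm7 with LPS and IFNβ were lost with the shift (-0.34 and -0.37).

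Xrn1, the cytoplasmic 5′ to 3′ nuclease that degrades decapped mRNA, was raised by LPS and by IFNβ in WT cells. It read 8.55 and 8.57 untreated, 8.76 and 8.65 with zVAD, 10.02 and 9.03 with LPS, 10.01 and 10.04 with IFNβ, 10.02 and 10.00 with LPS+zVAD, and 9.99 and 10.09 with IFNβ+zVAD. All of these arrays lay above both untreated arrays, those of zVAD alone by the least. The rise was 2.77-fold with IFNβ (log2 1.47 ± 0.35, adjusted p = 0.00285) and 2.74-fold with LPS+zVAD (1.45 ± 0.35, adjusted p = 0.00178). With LPS (0.97 ± 0.35, adjusted p = 0.0329) the call was lost without 3 of the 4 arrays in turn, and without WT LPS replicate 1 the change was 0.47 (adjusted p = 0.42). In Ifnar1-/- cells Xrn1 read 9.33 and 8.91 untreated and 7.85 and 8.24 with LPS+zVAD, and it fell (-1.07 ± 0.35, adjusted p = 0.0276, and up to 0.194 without 1 array, Ifnar1-/- LPS+zVAD replicate 1). Xrn2, its nuclear counterpart, read 13.19 and 13.08 untreated, 14.16 and 14.00 with IFNβ, 14.12 and 13.77 with IFNβ+zVAD, 13.78 and 13.17 with LPS and 13.77 and 13.66 with LPS+zVAD in WT cells. It rose with IFNβ (0.94 ± 0.22, adjusted p = 0.00296), IFNβ+zVAD (0.81 ± 0.22, adjusted p = 0.00792) and LPS+zVAD (0.58 ± 0.22, adjusted p = 0.0381), and with LPS the log2 change was 0.34 and did not pass. The call with LPS+zVAD was lost without any 1 of the 4 arrays (adjusted p up to 0.158, without WT untreated replicate 2), and that with IFNβ+zVAD without 2 of the 4 in turn (adjusted p up to 0.0882, without WT IFNβ+zVAD replicate 1). The 16 Ifnar1-/- arrays of Xrn2 lay between 11.59 and 12.38.

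**Figure D3:**
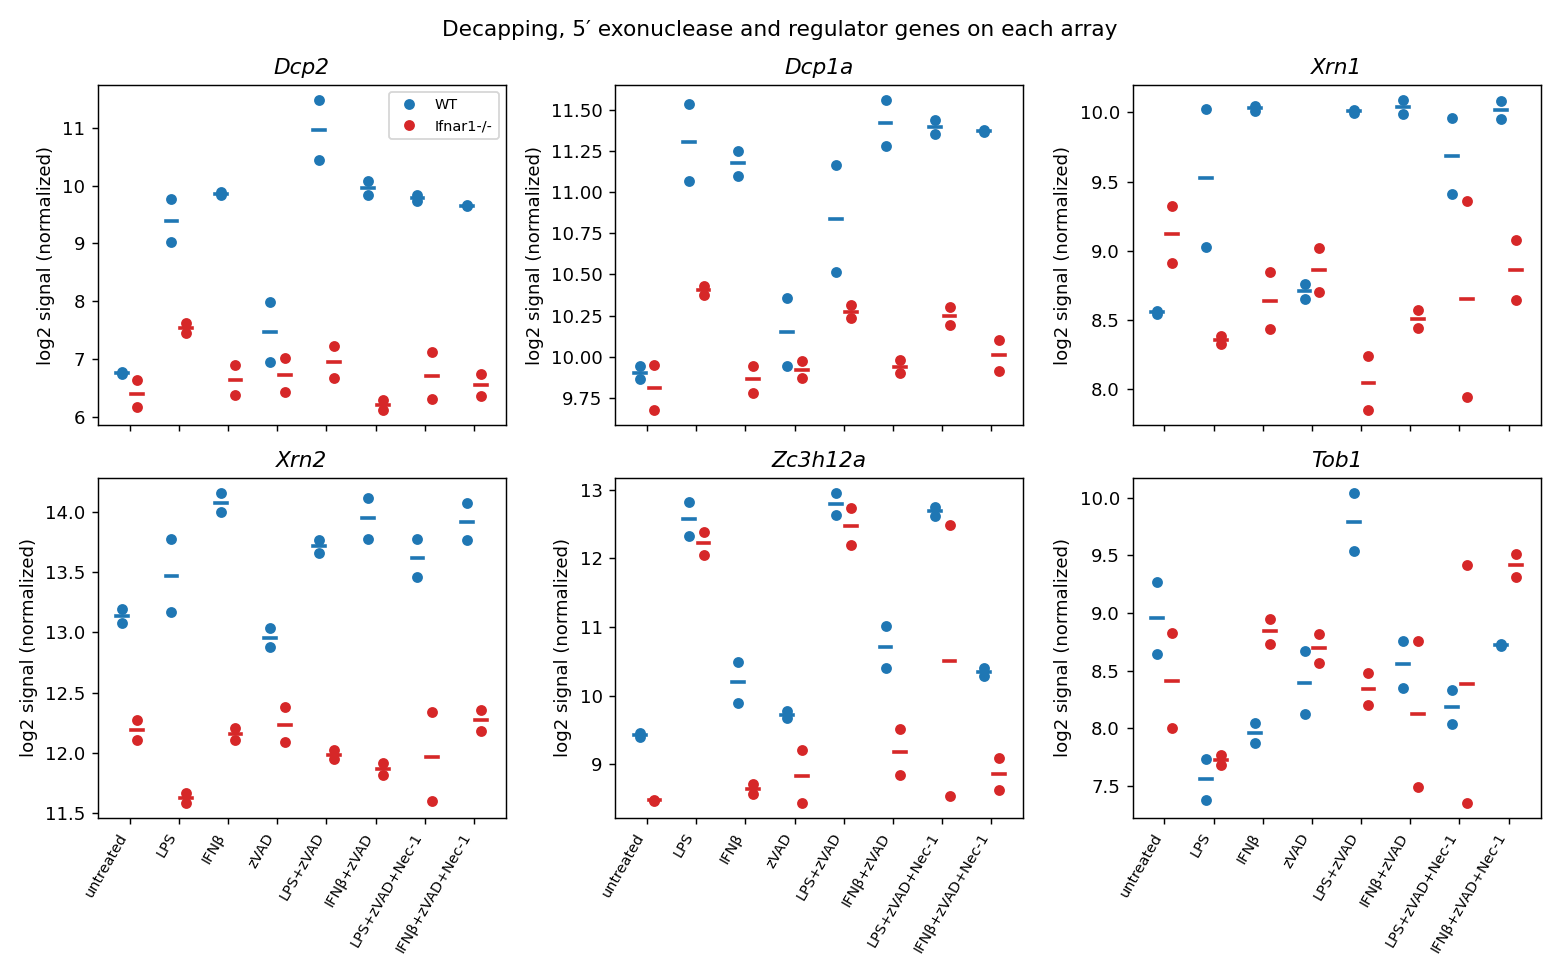
Normalized log2 signal on each array (points, WT blue and Ifnar1-/- red) and group mean (short lines) for Dcp2, Dcp1a, Xrn1, Xrn2, Zc3h12a and Tob1 over the 8 treatments. Dcp2 in WT lies between 9.02 and 11.47 wherever LPS or IFNβ was given, and the replicates of Zc3h12a part in Ifnar1-/- LPS+zVAD+Nec-1 (12.49 and 8.53).

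The exosome subunits separated into some that rose and some that fell. Exosc7, a subunit of its ring, read 11.45 and 11.86 on the untreated WT arrays, 9.93 and 11.08 with LPS, 10.50 and 10.68 with IFNβ, 8.74 and 8.90 with LPS+zVAD, and 10.42 and 10.45 with IFNβ+zVAD. The LPS+zVAD arrays were the lowest of the 16 WT arrays, and no treated array but those of zVAD alone overlapped the untreated ones. Exosc7 fell by 2.84 on the log2 scale with LPS+zVAD (7.15-fold, SE 0.27, adjusted p = 1.15e-07), by 1.15 with LPS (adjusted p = 0.0023, and 0.091 without WT LPS replicate 1, where it was -0.58) and by 1.06 with IFNβ (adjusted p = 0.00511, and 0.0716 without WT untreated replicate 2). Exosc5, another ring subunit, read 13.80 and 13.79 untreated, 12.34 and 12.22 with LPS, 12.64 and 12.26 with IFNβ, and 12.14 and 11.23 with LPS+zVAD. It fell by 1.52 with LPS (adjusted p = 0.000159), 1.35 with IFNβ (adjusted p = 0.000582) and 2.11 with LPS+zVAD (adjusted p = 2.29e-06), and kept these calls without any 1 array.

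Exosc4 and Exosc1 were low with LPS+zVAD and not with LPS. Exosc4, a ring subunit, read 11.34 and 11.38 untreated, 11.39 and 11.55 with LPS, 9.76 and 9.40 with LPS+zVAD, and 11.51 and 11.46 with LPS+zVAD+Nec-1. Exosc1, of the cap that sits on the ring, read 10.02 and 9.90 untreated, 9.62 and 10.39 with LPS, 8.16 and 7.82 with LPS+zVAD, and 9.80 and 9.73 with LPS+zVAD+Nec-1. In both genes the LPS+zVAD arrays lay more than 1 log2 unit below all arrays of the other 3 groups. Against untreated cells Exosc4 fell by 1.78 (SE 0.23, adjusted p = 3.21e-06) and Exosc1 by 1.97 (SE 0.29, adjusted p = 1.24e-05). Exosc1 also fell with IFNβ (-0.97 ± 0.29, adjusted p = 0.0131), where the call was lost without 3 of the 4 arrays in turn (adjusted p up to 0.0735, without WT untreated replicate 1), and Exosc4 did not pass there (-0.10).

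Exosc9, a further ring subunit, rose instead. It read 15.78 and 16.22 untreated and 15.49 and 16.27 with zVAD, and between 17.01 and 17.34 on the 12 WT arrays that had received LPS or IFNβ, with no overlap. The change was 1.26 ± 0.31 with LPS (adjusted p = 0.00336), 1.25 ± 0.31 with IFNβ (adjusted p = 0.00431) and 1.09 ± 0.31 with LPS+zVAD (adjusted p = 0.0067). The calls with IFNβ and LPS+zVAD were lost without WT untreated replicate 1 (adjusted p of 0.0574 and 0.0747). Of the catalytic subunits, Exosc10 rose with LPS (0.79 ± 0.20, adjusted p = 0.0038) and Dis3 fell with IFNβ (-0.89 ± 0.19, adjusted p = 0.00129), 1 spot of Dis3 marked as an outlier by the scanner software being left out. The cap subunit Exosc3 was higher with LPS (0.89 ± 0.26, adjusted p up to 0.128 without WT LPS replicate 2) and read -0.01 with LPS+zVAD, and Exosc8 was lower with LPS+zVAD (-0.60) and with IFNβ (-0.45, adjusted p up to 0.282 without WT IFNβ replicate 2). Exosc2 passed in no comparison, with group means between 18.11 and 18.45. Its mean signal lay at the 99.98th percentile of all genes, where quantile normalization leaves little room for differences between arrays. Its flat reading therefore cannot show that Exosc2 was unchanged.

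**Figure D4:**
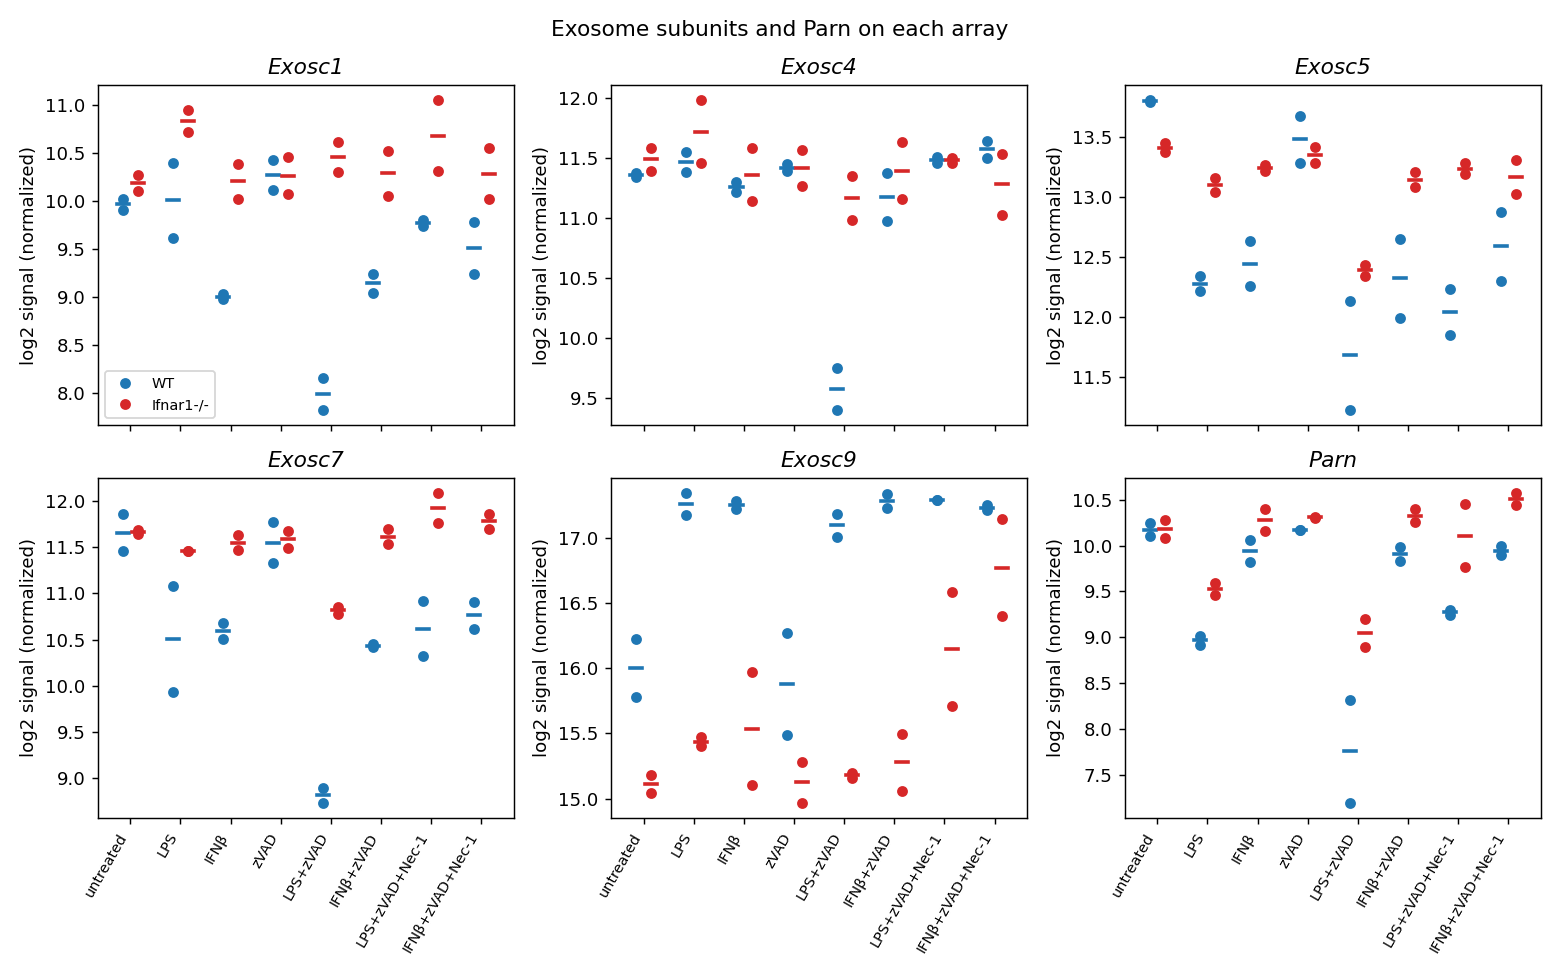
Normalized log2 signal on each array (points, WT blue and Ifnar1-/- red) and group mean (short lines) for Exosc1, Exosc4, Exosc5, Exosc7, Exosc9 and Parn over the 8 treatments. Exosc4 in WT drops to 9.76 and 9.40 with LPS+zVAD and reads 11.51 and 11.46 once Nec-1 is added, while Exosc9 in WT stays above 17 wherever LPS or IFNβ was given.

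The promoters of these genes were read from RefSeq (GRCm38.p6), which matched 36 of the 45 members. The 4 printed here run from base -150 to -1 before the start site, in lower case, and were chosen because they belong to genes that moved in opposite directions with IFNβ: Dcp1a and Xrn1 rose, Exosc5 and Exosc7 fell.
Dcp1a (chr14:30479415-30479564, + strand): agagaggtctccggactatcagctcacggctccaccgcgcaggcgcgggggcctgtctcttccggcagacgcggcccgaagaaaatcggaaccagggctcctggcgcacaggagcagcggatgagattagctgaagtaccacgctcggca
Xrn1 (chr9:95954610-95954759, + strand): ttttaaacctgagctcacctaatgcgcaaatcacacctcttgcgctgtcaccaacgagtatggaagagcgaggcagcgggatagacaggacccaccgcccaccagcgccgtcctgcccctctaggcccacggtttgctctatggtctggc
Exosc5 (chr7:25659003-25659152, + strand): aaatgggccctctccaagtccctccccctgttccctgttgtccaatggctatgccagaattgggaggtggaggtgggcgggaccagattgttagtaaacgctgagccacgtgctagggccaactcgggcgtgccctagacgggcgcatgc
Exosc7 (chr9:123113081-123113230, + strand): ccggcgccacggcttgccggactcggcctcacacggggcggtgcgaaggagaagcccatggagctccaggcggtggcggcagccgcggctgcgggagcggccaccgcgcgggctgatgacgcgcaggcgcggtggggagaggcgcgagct

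None of these 4 stretches held any of the 5 motifs searched on both strands, and they were 58.7% to 77.3% G or C beside a median of 54% in the same stretch of all promoters. In the whole promoter (300 bases, 250 before and 50 after the start) Dcp1a held 1 GAS site (TTCNNNGAA, the gamma interferon activated site) at bases -181 to -173, shown with the motif in capitals.
Dcp1a (chr14:30479374-30479403, + strand): gtcaggttcaTTCAGGGAAccggttcacac
Over the 36 matched members, the GAS motif was found in 5 (13.9%, beside 9.55% of all genes with a promoter), the interferon-stimulated response element GAAANNGAA in 2 (5.56% beside 9.76%), the NF-κB motif GGGNNTTTC in 4 (11.1% beside 5.06%), the AP-1 motif TGANTCA in 1 (2.78% beside 8.97%) and the cAMP response element TGACGTCA in 2 (5.56% beside 2.03%). One of the last was in Btg2, at bases -166 to -159.
Btg2 (chr1:134079303-134079332, - strand): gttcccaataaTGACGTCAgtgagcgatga
These matches describe letters in a window and are not bound sites. The array probes themselves are 60 bases long and were placed by the files on mm9, that of Xrn1 at chr9:95946013-95946072, that of Dcp1a at chr14:31339843-31339902 and that of Exosc7 at chr9:123045135-123045194, with no annotation of exon or intron used here.

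Among the deadenylases, the CCR4-NOT genes split between paralogs. Cnot7 and Cnot8 encode alternative nucleases of the complex and share a place in it. Cnot7 rose in WT cells with LPS (1.17 ± 0.16, adjusted p = 1.69e-05) and LPS+zVAD (0.57 ± 0.16, adjusted p = 0.00655). Cnot8 fell with LPS (-1.06 ± 0.19, adjusted p = 0.000248), IFNβ (-0.68 ± 0.19, adjusted p = 0.011) and LPS+zVAD (-1.54 ± 0.19, adjusted p = 2.56e-06). Of the other pair of nucleases, Cnot6l fell with LPS (-1.39 ± 0.28) and LPS+zVAD (-1.17 ± 0.28), and Cnot6 with LPS+zVAD (-1.11 ± 0.19) but not with LPS (-0.04). Cnot6l was also lower in Ifnar1-/- cells with both treatments (-1.24 and -1.25 ± 0.28, adjusted p of 0.00318 and 0.00278). With the shift to a common 75th percentile Cnot8 did not pass with LPS (-0.72, adjusted p = 0.0721) or IFNβ (-0.37, adjusted p = 0.424), nor did Cnot6l with LPS+zVAD in WT (-0.83, adjusted p = 0.0505) or LPS in Ifnar1-/- cells (-0.93, adjusted p = 0.057). The scaffold Cnot1 and its partner Cnot2 did not pass in any comparison with untreated cells. Cnot3 (-1.17 ± 0.40, adjusted p = 0.0191) and Cnot10 (-0.91 ± 0.28, adjusted p = 0.0106) were lower with LPS+zVAD, Cnot10 also with IFNβ (-0.87 ± 0.28, adjusted p = 0.0207). Without WT LPS+zVAD replicate 2 Cnot10 was -0.46 (adjusted p = 0.235). Its call with IFNβ was lost without 3 of the 4 arrays in turn (adjusted p up to 0.118, without WT IFNβ replicate 2), and that of Cnot3 without 2 of the 4 (adjusted p up to 0.11, without WT untreated replicate 2).

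Cnot4, a ubiquitin ligase that can join the complex, varied widely between replicates. It read 9.31 and 9.72 untreated, 9.49 and 9.92 with LPS, 10.82 and 12.11 with LPS+zVAD, and 9.38 and 10.29 with LPS+zVAD+Nec-1 in WT cells. The LPS+zVAD arrays lay above these others, while WT IFNβ+zVAD replicate 2 read 10.95. The rise with LPS+zVAD was 1.95 ± 0.57 (adjusted p = 0.00767). The call was lost without 2 of the 4 arrays in turn (1.30 without WT LPS+zVAD replicate 2). In Ifnar1-/- cells Cnot4 read 8.97 and 9.07 untreated and 10.06 and 10.19 with LPS+zVAD, and did not pass.

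Outside CCR4-NOT, Pan2, the nuclease of the PAN2-PAN3 pair, was lower with LPS (-0.85 ± 0.21) and LPS+zVAD (-1.19 ± 0.21) but not with IFNβ (-0.04). Pan3, its RNA-binding partner, was lower in all 6 comparisons of LPS- or IFNβ-treated WT cells with untreated cells (between -0.50 and -1.19). With the shift it passed with IFNβ+zVAD and LPS+zVAD+Nec-1 but not with LPS (-0.48), IFNβ (-0.63), LPS+zVAD (-0.18) or IFNβ+zVAD+Nec-1 (-0.68). With LPS+zVAD its call was lost without WT LPS+zVAD replicate 2 (adjusted p = 0.177). Parn, a poly(A)-specific ribonuclease, read 10.10 and 10.24 untreated, 8.92 and 9.01 with LPS, 9.82 and 10.07 with IFNβ, and 8.32 and 7.20 with LPS+zVAD in WT cells. It read 10.08 and 10.28 untreated, 9.46 and 9.60 with LPS, and 8.89 and 9.20 with LPS+zVAD in Ifnar1-/- cells. Parn fell by 2.42 on the log2 scale with LPS+zVAD in WT cells (5.33-fold, SE 0.26, adjusted p = 3.86e-07) and by 1.14 in Ifnar1-/- cells (SE 0.26, adjusted p = 0.00303), and the LPS+zVAD arrays did not overlap the untreated arrays in either genotype.

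The regulators included the gene with the second-largest range of group means, Zc3h12a. It read 9.40 and 9.45 on the untreated WT arrays, 12.81 and 12.32 with LPS, 12.63 and 12.95 with LPS+zVAD, 12.74 and 12.62 with LPS+zVAD+Nec-1, and 9.89 and 10.49 with IFNβ. In Ifnar1-/- cells it read 8.48 and 8.47 untreated, 12.39 and 12.05 with LPS, 12.74 and 12.19 with LPS+zVAD, and 8.56 and 8.71 with IFNβ. In both genotypes every LPS and LPS+zVAD array stood at least 2.87 above the untreated array of its slide. The rise with LPS was 8.81-fold in WT (3.14 ± 0.71, adjusted p = 0.0016) and 13.4-fold in Ifnar1-/- cells (3.75 ± 0.71, adjusted p = 0.000888), and the difference between the 2 changes, 0.61, did not pass (95% interval -1.51 to 2.72). With LPS+zVAD+Nec-1 in Ifnar1-/- cells Zc3h12a read 12.49 on replicate 1 and 8.53 on replicate 2, the array that goes against its label. The SD of this pair was 2.80, beside 0.54 in the group with the next largest SD (Ifnar1-/- zVAD). It enters the SE of every Zc3h12a comparison through the joint fit (pooled SD 0.76). The wide intervals of Zc3h12a and its comparisons that did not pass cannot be read apart from this pair. IFNβ did not pass in WT cells (log2 0.76).

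Tob1, Btg1 and Btg2 encode small proteins that bring the CCR4-NOT nucleases to mRNAs. Tob1 read 9.27 and 8.64 untreated, 7.73 and 7.38 with LPS, 10.04 and 9.54 with LPS+zVAD, and 8.03 and 8.33 with LPS+zVAD+Nec-1 in WT cells. It fell with LPS (-1.40 ± 0.48, adjusted p = 0.0246, and up to 0.171 without 1 array, WT untreated replicate 1), and the LPS+zVAD arrays were the highest of these groups but did not pass against untreated (0.83). Btg1 was lower with LPS (-0.87 ± 0.30, adjusted p = 0.0274) and Btg2 higher with IFNβ (0.80 ± 0.26, adjusted p = 0.0207) and IFNβ+zVAD (0.76 ± 0.26, adjusted p = 0.0245). The call of Btg1 was lost without any 1 of the 4 arrays (adjusted p up to 0.132, without WT LPS replicate 1) and with the shift (-0.26, adjusted p = 0.609). That of Btg2 was lost with IFNβ without 3 of the 4 arrays in turn (0.59, adjusted p = 0.175, without WT IFNβ replicate 2) and with IFNβ+zVAD without any 1 (adjusted p up to 0.131, without WT untreated replicate 1). Pabpc1, which coats the poly(A) tail, was lower with IFNβ (-0.73 ± 0.14, adjusted p = 0.000499), a call lost with the shift (-0.28, adjusted p = 0.45), and read -0.09 with LPS. Of the nonsense-mediated decay factors, the helicase Upf1 was higher with LPS in WT (0.64 ± 0.17) and Ifnar1-/- cells (0.60 ± 0.17, adjusted p up to 0.136 without Ifnar1-/- untreated replicate 1), and Upf2 did not pass in any comparison with untreated cells.

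The addition of zVAD to LPS in WT cells raised 6 members and lowered 15 (12.9% and 21.7% of all genes). The largest falls were those of Exosc1 (-2.01 ± 0.29, adjusted p = 2.85e-05), Exosc4 (-1.89 ± 0.23, adjusted p = 5.46e-06) and Exosc7 (-1.69 ± 0.27, adjusted p = 0.000103), followed by Edc3 (-1.28 ± 0.25) and Parn (-1.21 ± 0.26). The 6 that rose were Tob1 (2.24 ± 0.48, adjusted p = 0.00121), Cnot4 (1.76), Dcp2 (1.56), Btg1 (1.23), Ddx6 (0.49) and Pabpc1 (0.39). The rise of Ddx6 was lost without any 1 of the 4 arrays (log2 0.41 without WT LPS replicate 2). It also did not pass with the shift (0.47, adjusted p = 0.126). That of Pabpc1 was lost without 3 of the 4 arrays in turn (log2 0.31 without WT LPS replicate 2). The rise of Dcp2 was lost without WT LPS+zVAD replicate 2 (log2 1.04, adjusted p = 0.0857), and that of Cnot4 without the same array (1.11, adjusted p = 0.268). A fit of the LPS and LPS+zVAD arrays alone, with their own estimate of the spread, called 3 members, and the joint fit without WT LPS replicate 2 called 10.

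The addition of Nec-1 to LPS+zVAD raised 14 members and lowered 6 (18.7% and 9.78% of all genes). Exosc4 rose by 1.91 (SE 0.23, adjusted p = 9.6e-06), Exosc7 by 1.80 (SE 0.27, adjusted p = 8.41e-05), Exosc1 by 1.78 (SE 0.29, adjusted p = 0.00014) and Parn by 1.51 (SE 0.26, adjusted p = 0.000241). With Nec-1 present Exosc4 and Exosc1 differed from untreated cells by 0.13 and -0.20 and did not pass, whereas Exosc7 was still lower (-1.04 ± 0.27, adjusted p = 0.00502, and up to 0.0929 without WT LPS+zVAD+Nec-1 replicate 1). Tob1 (-1.61 ± 0.48), Btg1 (-1.03 ± 0.30) and Dcp2 (-1.17 ± 0.37) fell, the fall of Dcp2 being lost without 3 of the 4 arrays in turn (-0.66, adjusted p = 0.341, without WT LPS+zVAD replicate 2), and Dcp2 stayed 8.11-fold above untreated cells (3.02 ± 0.37, adjusted p = 4.94e-06). The falls of Btg1 and Tob1 also depended on single arrays. Without WT LPS+zVAD+Nec-1 replicate 1 the change of Btg1 was -0.90, and without WT LPS+zVAD replicate 1 that of Tob1 was -1.36. Both additions, of zVAD to LPS and of Nec-1 to LPS+zVAD, share the LPS+zVAD arrays, so their values are given side by side only. The fit of these 4 arrays alone called no member, and in the joint fit 7 of the 20 calls held without any 1 array, the count being lowest at 11 without WT LPS+zVAD+Nec-1 replicate 2.

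With IFNβ no member passed for either addition. No gene of the array passed there either, so this cannot show that the members were unchanged. Their log2 changes ran from -0.72 to 0.59 with zVAD added to IFNβ, and from -0.73 to 0.40 with Nec-1 added to IFNβ+zVAD. zVAD added to IFNβ called 0 of 45 (0% and 0% of all genes), and Nec-1 added to IFNβ+zVAD also 0 (0% and 0%), with 1 member in each at an unadjusted p under 0.05 and 0 called under each of the alternatives run. In Ifnar1-/- cells zVAD added to LPS raised Cnot1 (0.92 ± 0.20, adjusted p = 0.00736, but 0.58 and 0.177 without Ifnar1-/- LPS replicate 1) and lowered Dcp1b (-0.97 ± 0.17, adjusted p = 0.00127). That was 1 member in each direction (4.58% and 3.67% of all genes), and 14 passed with the replicate block.

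The change from untreated differed between the genotypes for 1 member with LPS, 8 with IFNβ, 9 with LPS+zVAD and 10 with IFNβ+zVAD. Counted as the change in Ifnar1-/- minus that in WT cells, 0 were higher and 1 lower with LPS (3.03% and 3.6% of all genes), 4 and 4 with IFNβ (10.3% and 8.54%), 7 and 2 with LPS+zVAD (11.3% and 4.78%) and 6 and 4 with IFNβ+zVAD (10.9% and 8.39%). These shares lay near the background. Without 1 array the counts ranged from 0 to 7 with LPS (7 without WT LPS replicate 2), and fell as low as 2, 5 and 4 with IFNβ, LPS+zVAD and IFNβ+zVAD, each without Ifnar1-/- untreated replicate 1. With the replicate block the counts were 9, 19, 15 and 20, and with the shift to a common 75th percentile 0 higher and 5 lower with IFNβ, 4 and 4 with LPS+zVAD, and 0 and 5 with IFNβ+zVAD. Untreated WT and untreated Ifnar1-/- arrays enter all 4 differences.

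Dcp2 differed most. Its change in Ifnar1-/- cells was smaller with LPS+zVAD (difference on the log2 scale -3.65 ± 0.53 SE, -3.19 and -4.11 on replicates 1 and 2, adjusted p = 0.000153), with IFNβ+zVAD (-3.40 ± 0.53, adjusted p = 0.0002) and with IFNβ (-2.87 ± 0.53, adjusted p = 0.00086). With LPS the difference of Dcp2 was -1.50 and did not pass (95% interval -2.61 to -0.39 before adjustment). Xrn1 differed in all 4, by -1.73 ± 0.49 with LPS (adjusted p = 0.041, and up to 0.257 without WT LPS replicate 1), -1.95 with IFNβ (adjusted p = 0.00951), -2.52 with LPS+zVAD (adjusted p = 0.00179) and -2.09 with IFNβ+zVAD (adjusted p = 0.00589). Dcp1a differed with IFNβ (-1.22 ± 0.28, adjusted p = 0.00529) and IFNβ+zVAD (-1.39 ± 0.28, adjusted p = 0.00205), as did Xrn2 (-0.98 and -1.14 ± 0.32). The call of Xrn2 with IFNβ was lost without any 1 of the 8 arrays (-0.90 without WT IFNβ replicate 1). That with IFNβ+zVAD was lost without 4 of the 8 in turn (-0.96 without WT IFNβ+zVAD replicate 1).

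With LPS+zVAD 3 of the 10 exosome members differed in the direction opposite to Dcp2 (11.3% of all genes, beside 4.78% in that of Dcp2). None of the other 7 passed, Exosc9 lying at -1.03. The change of Exosc1 was higher in Ifnar1-/- cells by 2.25 (SE 0.41, adjusted p = 0.000957), that of Exosc7 by 1.99 (SE 0.39, adjusted p = 0.00168) and that of Exosc4 by 1.46 (SE 0.32, adjusted p = 0.00457), and all 3 held without any 1 of the 8 arrays. On the Ifnar1-/- arrays Exosc1 read 10.27 and 10.10 untreated and 10.61 and 10.30 with LPS+zVAD, Exosc4 11.40 and 11.59 against 10.99 and 11.36, and Exosc7 11.64 and 11.68 against 10.78 and 10.85. Exosc7 alone of these 3 passed in Ifnar1-/- cells (-0.85 ± 0.27, adjusted p = 0.0265, and up to 0.129 without 1 array, Ifnar1-/- LPS+zVAD replicate 1). Cnot8 and Lsm7 were each higher by 0.81 to 1.07 in the differences with IFNβ, LPS+zVAD and IFNβ+zVAD, and Pabpc1 by 0.68 and 0.62 with IFNβ and IFNβ+zVAD. None of the differences of Cnot8, Lsm7 and Pabpc1 passed with the shift to a common 75th percentile, and each was lost without 3 or more of the 8 arrays in turn.

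**Figure D5:**
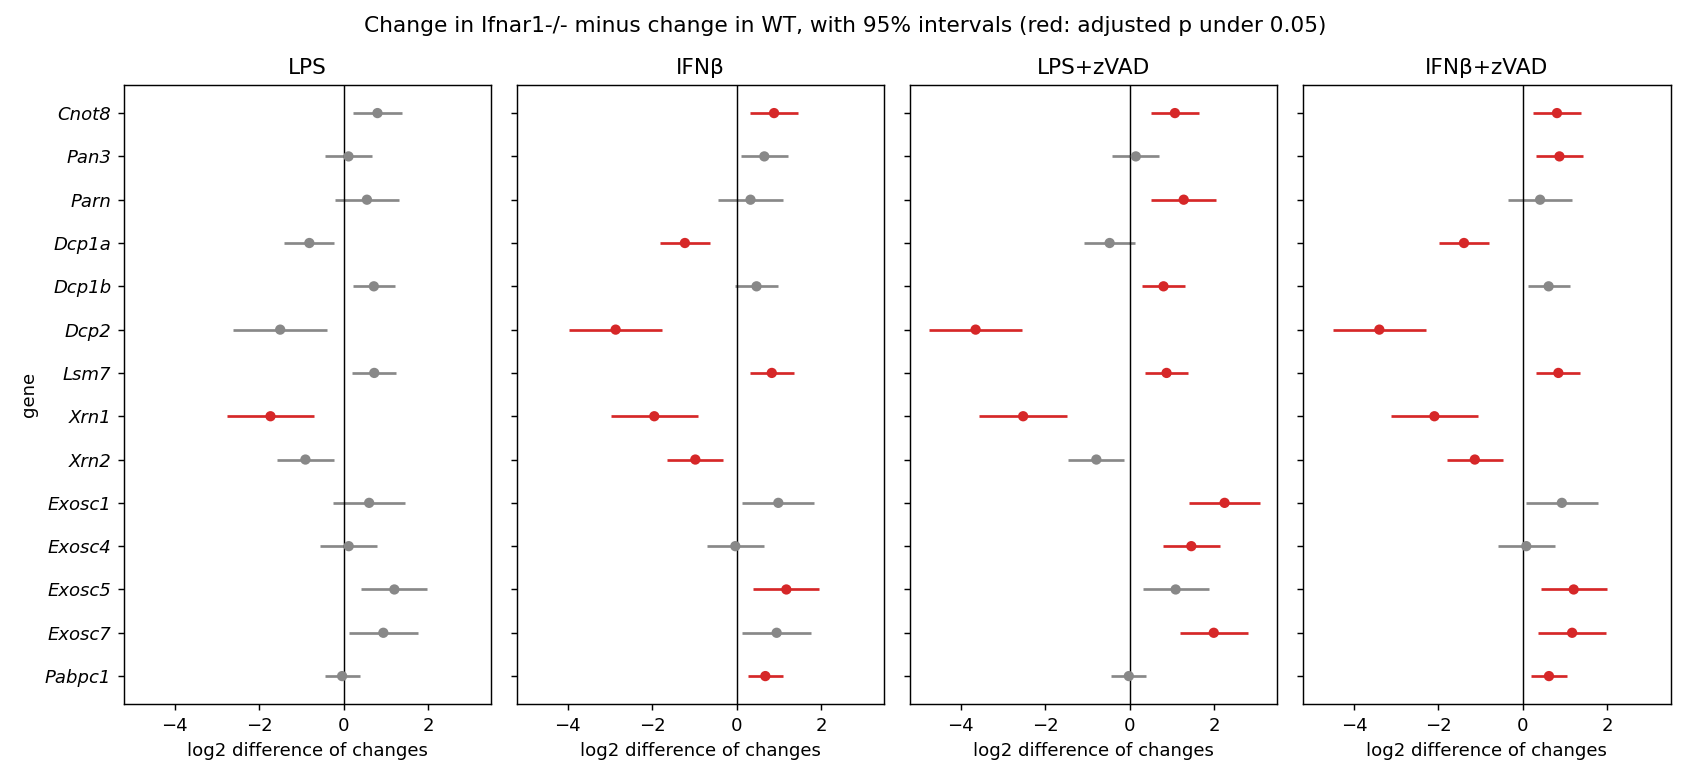
Change in Ifnar1-/- cells minus change in WT cells (points, log2) with 95% intervals (lines) for the 14 members called in at least 1 of the 4 differences, red where the adjusted p was under 0.05. Dcp2 lies at -3.65 and Exosc1 at 2.25 with LPS+zVAD.

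Of 45 other genes of the pathway, listed by function, 43 were measured. Counts and medians only were planned for them. Apart from Tob2, the genes named below were picked with no rule set beforehand, and the alternative fits were not read for them. The largest rise among the 43 with LPS+zVAD in WT cells, 3.26, was that of a gene not named here. In WT cells LPS+zVAD raised 13 and lowered 14 of them (18.3% and 32.7% of all genes), IFNβ raised 10 and lowered 12 (13.7% and 21.6%), and LPS raised 13 and lowered 9 (16.3% and 24.8%). The median log2 change was 0.06 with LPS+zVAD beside -0.15 over all genes, and thus did not share the low median of the members (-0.50). Exosc6, the ring subunit not among the members, fell with IFNβ (-1.66 ± 0.15, adjusted p = 7.98e-08) and LPS+zVAD (-1.29 ± 0.15, adjusted p = 7.47e-07). Patl1, which joins the LSM ring to the decapping enzyme, rose with LPS+zVAD (2.77 ± 0.22, adjusted p = 1.4e-08), as did the 3′ to 5′ nuclease Pnpt1 (2.36 ± 0.22) and the Zc3h12a relative Zc3h12c (2.89 ± 0.37). Nudt16, another decapping enzyme, fell by 3.69 (SE 0.26, adjusted p = 4.86e-09) and Tnrc6a, which links microRNA complexes to the deadenylases, by 3.52 (SE 0.27, adjusted p = 9.22e-09). The differences between genotypes passed for 4 of the 43 with LPS, 8 with IFNβ, 8 with LPS+zVAD and 10 with IFNβ+zVAD (higher and lower, 3.03% and 3.6%, 10.3% and 8.54%, 11.3% and 4.78%, and 10.9% and 8.39% of all genes). Among them were Exosc6 (1.36 ± 0.21 with LPS+zVAD, adjusted p = 0.00023) and Pnpt1 (-2.82 ± 0.31, adjusted p = 1.35e-05). Tob2, the paralog of Tob1, did not pass in WT cells with LPS+zVAD (0.67).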

How the data were processed

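Single-colour Agilent arrays had been scanned and extracted by the authors, and the deposited files hold the intensity of each spot after the scanner software's background treatment (processed signal), with its flags. The deposited table of the series holds the authors' processed log2 values of the same arrays and was used as an alternative only. The members and lists were chosen with earlier results of these data known. Here control spots were removed, as were the 130 to 499 spots of each array that the software had marked as outliers, the processed signal was taken to log2 and quantile normalized, spots of a probe were averaged, and probes well above background on at least 50% of the 32 arrays were kept, which gave 21465 probes and 16037 genes, each read from its brightest probe. Of 61 member probes 60 passed, no brightest probe was saturated, and 0 value columns were unused. One model over the 16 groups was fitted with limma 3.58.1 in R 4.3.3 (lmFit, eBayes, 16 residual degrees of freedom), and p-values were adjusted by Benjamini-Hochberg over all genes in each of 23 comparisons. Errors are standard errors of that model, and the number of arrays limits the precision.

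All 45 members were open to naming. Values on single arrays of the groups described were given for the 12 members with the largest range of group means. They were also given for Dcp1a, which lies outside that rule and was added after its values were seen. Not every group was given for each of these members. The other members were given by their log2 change, also where not called if another comparison of the same gene or group was described. The replicate number marks the slide within a genotype, and arrays of the same number deviated together from their group means, with correlations of 0.32 to 0.67 in WT and 0.17 to 0.57 in Ifnar1-/- cells (28 pairs of treatments each). The alternatives were a shift to a common 75th percentile, normexp background with an offset of 50, no filter on dim probes, the authors' processed values, the replicate number as a block, the groups compared alone, a fit without the pair labelled Ifnar1-/- LPS+zVAD+Nec-1, the mean of a gene's probes, and leaving out each array. The scripts were tested on simulated data. Promoters were matched by symbol to a RefSeq table and searched for 5 motifs on both strands.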

Additional observations from a re-analysis of the deposited data

Results flagged for a closer look

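The change from untreated differed between the genotypes, by limma's test of the difference itself (Ifnar1-/- minus WT, log2 scale, Benjamini-Hochberg adjusted p under 0.05), in 28 results for 14 members. With LPS the difference was below 0 for Xrn1 (-1.73). With IFNβ the difference was below 0 for Dcp1a (-1.22), Dcp2 (-2.87), Xrn1 (-1.95) and Xrn2 (-0.98) and above 0 for Cnot8 (0.89), Lsm7 (0.83), Exosc5 (1.18) and Pabpc1 (0.68). With LPS+zVAD the difference was below 0 for Dcp2 (-3.65) and Xrn1 (-2.52) and above 0 for Cnot8 (1.07), Parn (1.28), Dcp1b (0.80), Lsm7 (0.87), Exosc1 (2.25), Exosc4 (1.46) and Exosc7 (1.99). With IFNβ+zVAD the difference was below 0 for Dcp1a (-1.39), Dcp2 (-3.40), Xrn1 (-2.09) and Xrn2 (-1.14) and above 0 for Cnot8 (0.81), Pan3 (0.87), Lsm7 (0.84), Exosc5 (1.21), Exosc7 (1.17) and Pabpc1 (0.62). Some of these calls depended on the scaling and on single arrays. With the alternative shift in scaling, Parn (adjusted p = 0.0738) and Dcp1b (adjusted p = 0.0862) did not pass with LPS+zVAD. Nor did Exosc5 with IFNβ (adjusted p = 0.0949) or IFNβ+zVAD (adjusted p = 0.0784). Pan3 (adjusted p = 0.307) and Exosc7 (adjusted p = 0.13) did not pass with IFNβ+zVAD. Each of these differences was also lost without 4 or more of the 8 arrays in turn. No group had more than 2 arrays, so single arrays far from the rest of a group were not sought.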

How the results depend on the processing

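Counts of members called moved by more than 1.5 times under these alternatives. With the shift to a common 75th percentile they were 12 (WT IFNβ), 10 (WT IFNβ+zVAD+Nec-1), 5 (Ifnar1-/- LPS), 5 (Ifnar1-/- F test), and 2, 5 and 5 for the differences between genotypes with LPS, IFNβ and IFNβ+zVAD. With the replicate block, that is with the slides paired, they were 23 (Ifnar1-/- LPS+zVAD), 2 (Ifnar1-/- IFNβ+zVAD+Nec-1), 14 (Ifnar1-/- zVAD added to LPS), 28 (Ifnar1-/- F test), and 9, 19, 15 and 20 for the differences with LPS, IFNβ, LPS+zVAD and IFNβ+zVAD, and all 228 calls of a member in a comparison held under the block. With only the groups compared in the fit they were 13, 11, 18, 8 and 5 (WT LPS, IFNβ, LPS+zVAD, IFNβ+zVAD and IFNβ+zVAD+Nec-1), 0 (Ifnar1-/- IFNβ+zVAD+Nec-1), 3 (zVAD added to LPS in WT), 0 (Nec-1 added to LPS+zVAD), 5 (zVAD added to LPS in Ifnar1-/-), and 5 and 6 for the differences with LPS+zVAD and IFNβ+zVAD, a fit with fewer arrays to estimate the spread. Without the filter on dim probes the differences with LPS, IFNβ and IFNβ+zVAD gave 0, 5 and 5, with the authors' processed values those with LPS and IFNβ+zVAD gave 0 and 6, and with normexp that with LPS gave 2. Without the pair labelled Ifnar1-/- LPS+zVAD+Nec-1 the difference with LPS gave 2 and zVAD added to LPS in Ifnar1-/- cells 4, as did the mean of a gene's probes. Apart from the construction of the fit on fewer arrays, the cause was not tested.

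Leaving out 1 array at a time gave 16 to 20 members (WT LPS), 12 to 14 (IFNβ), 21 to 28 (LPS+zVAD), 12 to 19 (IFNβ+zVAD), 15 to 16 (LPS+zVAD+Nec-1) and 9 to 13 (IFNβ+zVAD+Nec-1), and 3 to 5 (Ifnar1-/- LPS), 4 to 10 (LPS+zVAD), 0 to 3 (LPS+zVAD+Nec-1) and 0 to 1 (IFNβ+zVAD+Nec-1). It gave 10 to 18 for zVAD added to LPS, 11 to 16 for Nec-1 added to LPS+zVAD, 1 to 2 for zVAD added to LPS in Ifnar1-/- cells, 0 to 7, 2 to 7, 5 to 9 and 4 to 5 for the differences with LPS, IFNβ, LPS+zVAD and IFNβ+zVAD, and 31 to 38 and 7 to 15 for the F tests in WT and Ifnar1-/- cells. Of the 228 calls, 104 held whichever array was left out. Of the same 228, 155 held with the shift, 199 with normexp, 193 without the filter, 187 with the authors' processed values (43 members), 105 with only the groups compared, 228 without the pair and 221 with the mean of probes. One reversed, Lsm4 with LPS in WT cells, from -0.47 to 0.10 with the shift (adjusted p = 0.788). With 2 arrays per group, genotype and slide cannot be told apart, and signal over background limits dim probes.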
